A study of Mus musculus with 12 samples.

Results

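Genes that receive the Wnt and R-spondin signal, and genes that the signal turns on and that then restrain it, were followed in cells of mouse liver cancer organoids. The 10 genes were *Lgr5* and *Lgr4* (receptors of R-spondins), *Rnf43* and *Znrf3* (ubiquitin ligases), *Notum* (a secreted Wnt inhibitor), *Axin2*, *Nkd1* and *Nkd2* (intracellular inhibitors) and *Tcf7* and *Ascl2* (transcription factors). They were given by name as genes of the pathway, and all 10 of the 47069 genes in the count table were found. All 10 also passed the filter on low counts, with 16157 genes in all, although *Nkd2* passed it through the groups in which it was higher.

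The cells were sorted on the GFP of the *Lgr5–DTR–GFP* allele into LGR5+ and LGR5- cells, and RNA was sequenced from 3 libraries of each population, untreated or treated with 5-FU (5-fluorouracil, a cytotoxic drug of the fluoropyrimidine class). The 4 groups were thus untreated LGR5-, untreated LGR5+, 5-FU LGR5- and 5-FU LGR5+ cells. All of them shared the strain C57BL/6 and the genotype label LGR5-DTRGFP+, a knock-in that places GFP and diphtheria toxin receptor under control of *Lgr5*, so the allele that marks the cells was present in every group. The organoids were grown from liver tumors that the carcinogen DEN had induced in such mice, in a medium that contained R-spondin-1, a ligand of LGR4 and LGR5, and in the first days of culture also Wnt3a-conditioned medium and Noggin. The study names a dose of 5-FU for its drug assays on organoids but does not tie it to the sequenced cells. The dose and duration for these cells, and the number of organoid lines behind the libraries, are not given in the sources used here, and no label says that the libraries of a group came from separate cultures. *P* values therefore measure the spread between these libraries, which may be technical.

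Wnt ligands bind Frizzled and LRP receptors at the cell surface, which spares β-catenin from degradation and lets it act in the nucleus with TCF/LEF factors. RNF43 and ZNRF3 remove Frizzled receptors from the membrane, and R-spondins bound to LGR4, LGR5 or LGR6 block these ligases and so strengthen the signal. Many genes that β-catenin turns on code for brakes, among them AXIN2 (scaffold of the complex that degrades β-catenin), NKD1 and NKD2 (which bind Dishevelled), NOTUM (an enzyme that removes the lipid from Wnt proteins) and the ligases themselves. In the liver this pathway sets the pericentral program of hepatocytes, and *Lgr5* marks pericentral hepatocytes and cells that appear after injury.

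Counted reads per library ranged from 13750591 to 19323514, and levels are given as CPM (counted reads scaled to the same total) after TMM scaling, a scaling that sets the bulk of genes equal between libraries. In these libraries 3 reads, the limit that a count of 0 allows, corresponded to 0.155 to 0.218 CPM. Mitochondrial genes took 1.47% to 3.08% of reads in 10 libraries, and 6.93% and 6.44% in replicate 3 of the untreated and the 5-FU LGR5- cells, so results that turn on these libraries are given with and without them. Of 9 hepatocyte markers, 6 stayed at or under 3 reads in every library of each group, with *Hnf4a* at 0 to 2 reads and *Alb* at 2 to 33, and *Afp* lay between 9.88 and 54.3 CPM. All 7 cholangiocyte markers and all 8 markers of lung epithelium had more than 3 reads in at least 1 library of every group, with *Nkx2-1*, a factor of lung and thyroid, at 43.3 to 76.3 CPM and *Sftpc*, which codes for the surfactant protein of alveolar type II cells, at 2619 to 17330 CPM. The markers thus go against a hepatocyte identity of these cells, and the tissue is called liver cancer here as the labels do.

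The members differed widely in level. Per kilobase of exon (GENCODE M21 annotation, mean over 12 libraries), *Nkd1* was highest at 201.0 CPM per kb, followed by *Notum* at 119.5 and *Tcf7* at 57.0. *Rnf43* at 16.5, *Axin2* at 16.2, *Znrf3* at 11.1 and *Ascl2* at 7.28 CPM per kb formed a middle range. *Lgr5* lay at 2.60, *Lgr4* at 0.160 and *Nkd2* at 0.0895 CPM per kb. The inhibitor *Nkd1* was thus 77.4 times as abundant per length as the receptor *Lgr5*, and *Lgr5* 16.2 times as abundant as *Lgr4*. The length joins all annotated exons of a gene, 10264 bases for *Lgr5* and 4558 for *Nkd1*. Which of these exons the cells use was not tested, and the ratios depend on it. Over the 12 libraries the range of *Nkd1* overlapped those of *Notum* and *Tcf7*, and the range of *Axin2* those of *Rnf43*, *Znrf3* and *Ascl2*. The ranges of *Znrf3* and *Ascl2*, and of *Lgr4* and *Nkd2*, overlapped too, so the order within these pairs was not clear of the spread. The ranges of *Notum* and *Tcf7*, *Ascl2* and *Lgr5*, and *Lgr5* and *Lgr4* did not overlap. *Lgr6*, the third R-spondin receptor, is no member and was looked at after its values were seen: its group means lay between 24.7 and 33.1 CPM per kb, above every library of *Lgr5*.

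**Figure D1:**
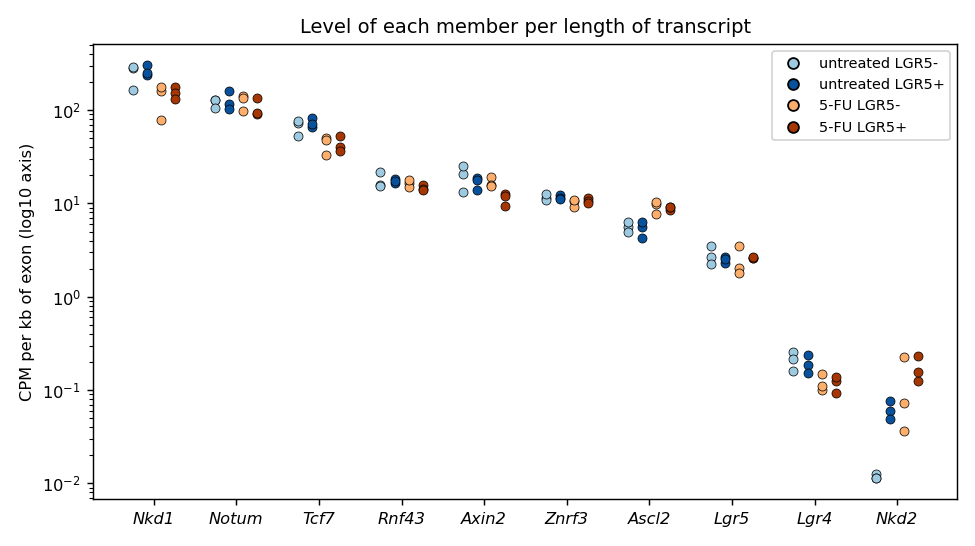
Level of the 10 genes in CPM per kb of exon (log10 axis), with 1 point per library in the colour of its group. *Nkd1* and *Notum* have the highest means, *Lgr5* at 1.78 to 3.51 CPM per kb lies below 7 of the other members in every library, and *Nkd2* spreads most, from 0.0114 to 0.233.

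Past the threshold given below, 5-FU changed 2 of the 10 members in each population, near the shares of all genes given there. Between LGR5+ and LGR5- cells edgeR called none of the 16157 genes, and so no member. *Ascl2* rose in both populations (in LGR5- cells not past the threshold without both replicate 3 libraries), *Tcf7* fell in LGR5+ cells, and *Nkd2* was called higher in LGR5- cells, from 1 read in each untreated library. In LGR5+ cells no member passed the threshold without untreated replicate 1 or 2, or without 5-FU replicate 2 or 3. *Lgr5* itself stayed between 18.3 and 36.0 CPM in all 12 libraries. A gene is called changed where its adjusted *P* (edgeR's quasi-likelihood test over all 12 libraries, Benjamini-Hochberg over 16157 genes) was under 0.05. By this rule 2 of 10 members were called for 5-FU in LGR5+ cells, 1 higher and 1 lower, where 16.0% of all genes were called (9.66% higher and 6.37% lower). In LGR5- cells 2 of 10 were called, both higher, where 15.4% of genes were (8.30% higher and 7.11% lower). One of the calls in LGR5- cells was *Nkd2*, which passed the filter through the groups in which it was higher, so this count supports nothing about the members. The calls in LGR5- cells differed between fits. Without both replicate 3 libraries *Nkd1* and *Tcf7* were called lower and 0 members higher, where 16.9% of all genes were called. DESeq2 on all libraries called 2 higher and 2 lower, where 19.5% of all genes were. In edgeR no member was called without untreated replicate 1, and 1 was without untreated replicate 2 or 5-FU replicate 2. The median log2 fold change of the 10 members was -0.25 in LGR5+ and -0.20 in LGR5- cells, against -0.016 and -0.050 over all genes, and 7 of 10 had a negative value in each population.

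Other features of the cells moved with the treatment. The summed level of 7 proliferation genes was 1282 to 1828 CPM in untreated and 351 to 1030 CPM in 5-FU-treated libraries, with 4 of 7 called lower in LGR5+ and 7 of 7 in LGR5- cells, against 6.37% and 7.11% of all genes. The 7 cholangiocyte markers summed to 2388 to 3112 CPM without and 3425 to 11890 CPM with 5-FU, of which 2 were called higher in each population, against 9.66% and 8.30% of all genes. Of the 8 lung epithelium markers, 2 were called higher in LGR5+ and 3 in LGR5- cells (median log2 fold changes 1.03 and 1.10) against the same shares, while their sum, which *Sftpc* dominates, was 3564 to 17530 CPM without and 3112 to 6527 CPM with 5-FU. Of the hepatocyte and macrophage markers 2 each were tested, and 1 each was called higher in both populations. Of the fibroblast markers 1 of 2 tested was called lower in both, and 0 tested intestinal or endothelial markers were called. The part of these shifts in the values of the members was not tested. In bulk RNA, fewer cells that express a gene and less of its RNA per cell cannot be told apart.

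*Lgr5* (ENSMUSG00000020140) codes for the R-spondin receptor whose locus carries the GFP used for sorting. On GRCm38 it lies on chromosome 10 from 115450311 to 115587780 (minus strand). Its levels were 27.5, 23.0 and 36.0 CPM in untreated LGR5- and 27.5, 23.4 and 26.2 CPM in untreated LGR5+ libraries. After 5-FU they were 21.1, 18.3 and 36.0 CPM in LGR5- and 27.0, 26.8 and 27.2 CPM in LGR5+ libraries. Replicate 3 of the LGR5- cells was highest in both treatments, the 5-FU LGR5+ libraries lay closest together, and all groups overlapped. The log2 fold change of 5-FU over untreated cells was 0.071 in LGR5+ (95% interval -0.43 to 0.57, adjusted *P* = 0.876, edgeR) and -0.20 in LGR5- cells (-0.71 to 0.30, adjusted *P* = 0.618, edgeR). The value in LGR5- cells was -0.52 without replicate 3 of the 5-FU LGR5- cells, -0.015 without replicate 3 of the untreated ones and -0.36 without both, and none of these was called. Between the populations, LGR5+ over LGR5- cells, it was -0.17 (-0.67 to 0.33, adjusted *P* = 1, edgeR) in untreated cells, and 0.026 without replicate 3 of the untreated LGR5- cells. After 5-FU it was 0.11 (-0.39 to 0.61, adjusted *P* = 0.842, edgeR), -0.066 without replicate 2 and 0.42 without replicate 3 of the 5-FU LGR5- cells. GFP transcripts were not analysed here, so the sort itself was checked only through the endogenous gene, whose level was not shown to differ between the populations.

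*Lgr4* (ENSMUSG00000050199; chromosome 2 from 109917647 to 110014257), the relative of *Lgr5* found in many epithelia, was near the lower end of what these libraries resolve. It was counted at 1.52, 1.26 and 0.944 CPM in untreated LGR5- and 1.39, 1.11 and 0.896 CPM in untreated LGR5+ libraries. With 5-FU, LGR5- libraries had 0.589, 0.644 and 0.880 CPM and LGR5+ libraries 0.731, 0.550 and 0.819 CPM. Every treated library lay below every untreated library of its population, yet neither difference was called. Its log2 fold change stood at -0.69 in LGR5+ (standard error 0.43, adjusted *P* = 0.319, edgeR) and -0.82 in LGR5- cells (standard error 0.43, adjusted *P* = 0.234, edgeR). Groups that do not overlap are common here: 42.3% of all genes separated treated from untreated libraries in LGR5+ and 27.1% in LGR5- cells, against 7 and 5 of the 10 members. *Nkd2*, which passed the filter through the groups in which it was higher, is in both counts, so they support nothing about the members. With 3 libraries against 3, the exact permutation test on a single gene cannot go below *P* = 0.1.

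**Figure D2:**
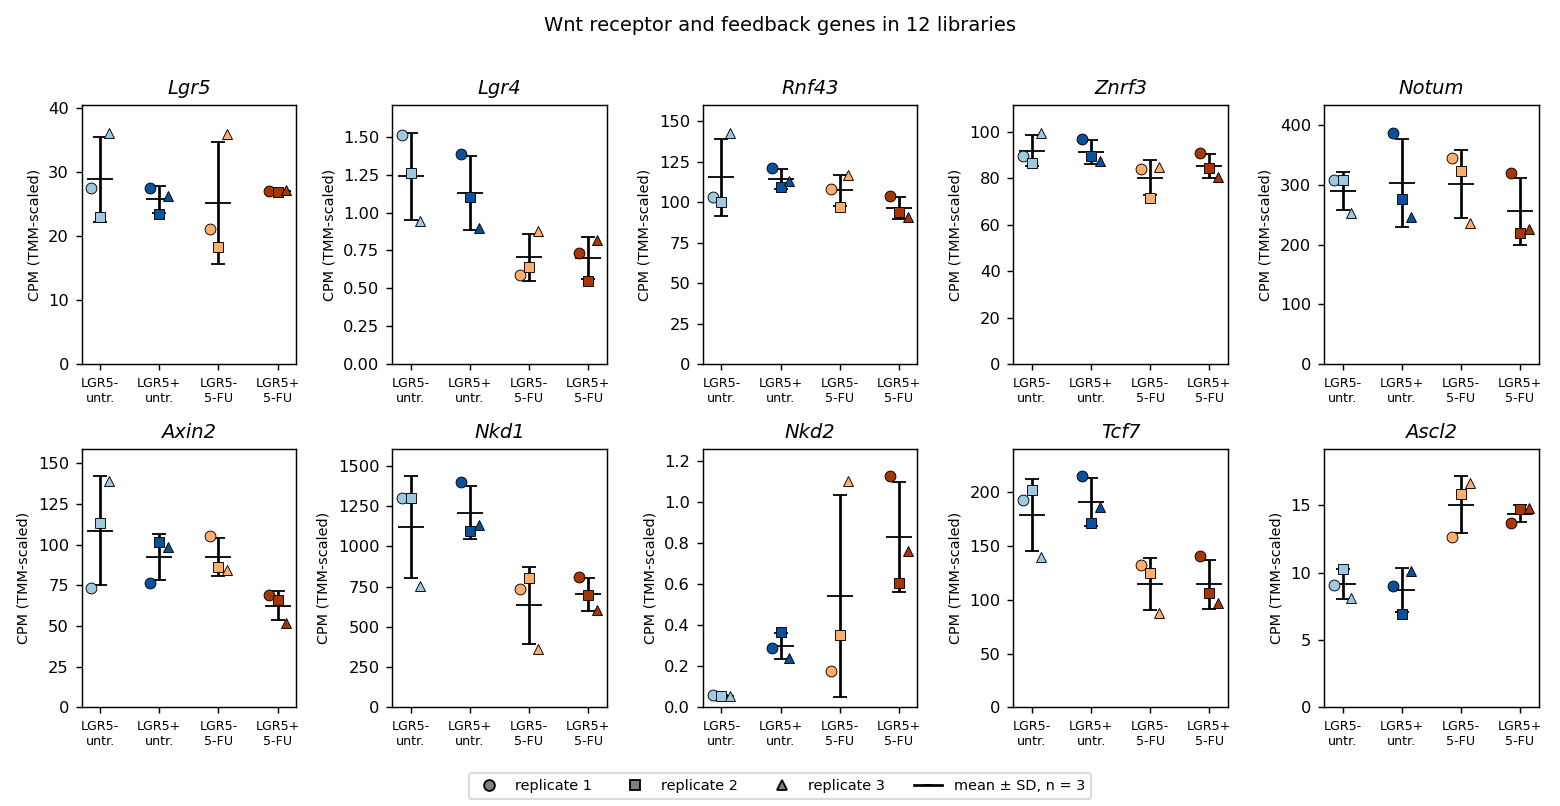
CPM (TMM-scaled) of each member in the 12 libraries, on axes from 0, with the replicate number as the marker and bars for the mean ± SD of 3 libraries. *Ascl2* is higher and *Tcf7* lower in all treated than in all untreated libraries of the same population, and replicate 3 of the LGR5- cells (light triangles) is highest for *Lgr5* and lowest for *Nkd1* among libraries of its treatment.

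The ligases *Rnf43* and *Znrf3*, which take Frizzled receptors off the membrane, were the steadiest members. *Rnf43* (ENSMUSG00000034177; chromosome 11 from 87662722 to 87735539) had 103, 100 and 143 CPM in untreated LGR5-, 121, 110 and 113 in untreated LGR5+, 108, 97.3 and 117 in 5-FU LGR5- and 104, 94.3 and 91.1 CPM in 5-FU LGR5+ libraries. *Znrf3* (ENSMUSG00000041961; chromosome 11 from 5276324 to 5444847) had 89.4, 86.7 and 99.6 CPM, then 97.1, 89.7 and 87.3, then 84.1, 71.6 and 85.0, and then 91.0, 84.3 and 80.7 CPM in the same order. From its lowest to its highest library *Znrf3* spanned 1.39-fold and *Rnf43* 1.57-fold, the narrowest of the 10. With 5-FU the log2 fold change of *Rnf43* was -0.25 in LGR5+ and -0.11 in LGR5- cells, and that of *Znrf3* -0.098 and -0.20. None was called, and the 95% intervals reached from -0.62 to 0.27 for *Rnf43* and from -0.52 to 0.23 for *Znrf3* over both populations.

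*Notum* (ENSMUSG00000042988; chromosome 11 from 120653788 to 120661175) codes for the secreted enzyme that inactivates Wnt ligands. Its levels were 308, 309 and 254 CPM in untreated LGR5-, 388, 277 and 247 in untreated LGR5+, 345, 323 and 237 in 5-FU LGR5- and 321, 221 and 226 CPM in 5-FU LGR5+ libraries. The groups overlapped throughout, and replicate 1 was high in the LGR5+ cells of both treatments. The response to 5-FU was -0.25 in LGR5+ (standard error 0.23, adjusted *P* = 0.516, edgeR) and 0.056 in LGR5- cells (standard error 0.23, adjusted *P* = 0.905, edgeR) on the log2 scale. In the annotation *Notum* shares 708 exonic bases with the antisense gene *Notumos* and 210 with *Myadml2os*, and *Axin2* shares 209 with *Gm11670*. The strand of counting is not given in the sources used here, so reads there cannot be told apart from those of the antisense genes.

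*Axin2* (ENSMUSG00000000142; chromosome 11 from 108920349 to 108950783), a widely used readout of β-catenin activity, had 73.3, 113 and 139 CPM in untreated LGR5- and 76.4, 102 and 98.9 CPM in untreated LGR5+ libraries. With 5-FU it had 106, 86.3 and 84.6 CPM in LGR5- and 68.9, 66.2 and 52.2 CPM in LGR5+ libraries. The 5-FU LGR5+ libraries were the 3 lowest of the 4 groups, below every untreated LGR5+ and every 5-FU LGR5- library. Relative to untreated LGR5+ cells *Axin2* had a log2 fold change of -0.57 (unadjusted *P* = 0.0248, adjusted *P* = 0.105, edgeR, standard error 0.23), which was not called. A fit of the LGR5+ libraries alone called it, with an adjusted *P* of 0.0239 (edgeR), as did the fit without replicate 3 of the LGR5- cells, with 0.0337 (edgeR). In LGR5- cells it was -0.24 (standard error 0.22, adjusted *P* = 0.532, edgeR), and 0.040 without both replicate 3 libraries.

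*Nkd1* (ENSMUSG00000031661; chromosome 8 from 88521354 to 88594884) was the most abundant member, with 1300, 1303 and 753 CPM in untreated LGR5- and 1398, 1095 and 1135 CPM in untreated LGR5+ libraries. After 5-FU there were 738, 804 and 360 CPM in LGR5- and 809, 696 and 605 CPM in LGR5+ libraries. All LGR5+ libraries were lower with 5-FU than without. In LGR5- cells the groups overlapped, as untreated replicate 3 lay below 5-FU replicate 2. The log2 fold changes were alike, -0.78 in LGR5+ (standard error 0.30, adjusted *P* = 0.0918, edgeR) and -0.82 in LGR5- cells (standard error 0.30, adjusted *P* = 0.0801, edgeR), and neither was called. DESeq2, fitted to the same counts, put both under the threshold, with adjusted *P* values of 0.0385 and 0.0347. So did edgeR without both LGR5- replicate 3 libraries, with 0.00302 in LGR5+ and 0.0190 in LGR5- cells. With the replicate number as a block edgeR gave 0.0342 and 0.0274. The call for *Nkd1* thus differed between fits, and the cause was not tested.

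*Nkd2* (ENSMUSG00000021567; chromosome 13 from 73818534 to 73847631), its close relative, was counted at 1 read in each untreated LGR5- library and at 5, 6 and 4 reads in the untreated LGR5+ libraries. After 5-FU there were 3, 6 and 15 reads in LGR5- and 20, 11 and 13 reads in LGR5+ libraries. Treated libraries were above untreated ones in both populations, but at 1 to 20 reads counting error is large. In LGR5- cells edgeR fitted a log2 fold change of 3.06, with a standard error of 0.83 and an adjusted *P* of 0.0226. The ratio of summed reads, 24 against 3, was 8.85 after scaling, with an exact 95% counting interval of 2.69 to 45.9. Replicate 3 held 15 of the 24 reads, and without it the ratio was 4.64 (1.16 to 26.7) and the gene was no longer called (adjusted *P* = 0.125, edgeR). Without untreated replicate 1 or 2 the call was lost too, at adjusted *P* values of 0.0733 and 0.0745 (edgeR). For LGR5+ cells edgeR gave 1.45 on the log2 scale (standard error 0.65, adjusted *P* = 0.145). The difference between both responses was -1.61 (standard error 1.06, adjusted *P* = 1, edgeR), so it was not shown that the populations responded differently.

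*Tcf7* (ENSMUSG00000000782; chromosome 11 from 52252371 to 52283014) codes for TCF1, a DNA-binding partner of β-catenin and itself a Wnt target. It had 193, 202 and 140 CPM in untreated LGR5- and 214, 171 and 186 CPM in untreated LGR5+ libraries, then 132, 125 and 87.4 CPM in 5-FU LGR5- and 140, 106 and 96.5 CPM in 5-FU LGR5+ libraries. All treated libraries lay below all untreated libraries of their population. *Tcf7* fell 1.67-fold in LGR5+ cells (log2 fold change -0.74, standard error 0.22, adjusted *P* = 0.0319, edgeR). In LGR5- cells the value was -0.63 (standard error 0.22, adjusted *P* = 0.0639, edgeR), past the threshold only in some fits. These gave 0.0341 by DESeq2, and by edgeR 0.0363 without both replicate 3 libraries, 0.0194 without the untreated one and 0.0247 with the replicate number as a block. In LGR5+ cells the call was lost, but not the direction, when any of 5 of the 6 libraries was left out, namely untreated replicates 1, 2 and 3 and 5-FU replicates 2 and 3, with adjusted *P* values of 0.114, 0.0533, 0.0870, 0.139 and 0.161 (edgeR). The share of all genes called fell too, from 16.0% to between 8.22% and 11.9% in these fits.

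*Ascl2* (ENSMUSG00000009248; chromosome 7 from 142966829 to 142969264) codes for a basic helix-loop-helix factor known as a Wnt target of intestinal stem cells. It was counted at 9.09, 10.3 and 8.11 CPM in untreated LGR5- and 9.01, 6.94 and 10.2 CPM in untreated LGR5+ libraries. With 5-FU it reached 12.7, 15.8 and 16.7 CPM in LGR5- and 13.7, 14.7 and 14.8 CPM in LGR5+ libraries. All 6 treated libraries were above all 6 untreated ones. *Ascl2* rose 1.65-fold in LGR5+ cells (log2 fold change 0.72, standard error 0.20, adjusted *P* = 0.0215, edgeR) and 1.64-fold in LGR5- cells (log2 fold change 0.71, standard error 0.20, adjusted *P* = 0.0245, edgeR). The difference between the responses was 0.012 (95% interval -0.58 to 0.61, adjusted *P* = 1, edgeR).

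The size of the *Ascl2* change kept within 0.59 to 0.85 in LGR5+ and 0.63 to 0.82 in LGR5- cells on the log2 scale as single libraries were left out, but the call was often lost. In LGR5+ cells this happened without untreated replicate 1 or 2 and without 5-FU replicate 2 or 3, at adjusted *P* values of 0.0533, 0.0991, 0.0790 and 0.0808 (edgeR). In LGR5- cells it happened without untreated replicate 1 or 3 and without 5-FU replicate 2 or 3, at 0.0796, 0.0503, 0.0792 and 0.0591 (edgeR), and at 0.101 without both replicate 3 libraries. Over all genes the share called in these fits was 8.22% to 11.9% in LGR5+ cells, against 16.0% in the main fit. In LGR5- cells it was 9.36% to 20.8%, against 15.4%. The call was also lost in LGR5+ cells without a filter (0.0612, edgeR) and with library size only (0.0502, edgeR), and in LGR5- cells with only the libraries compared (0.0925, edgeR).

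**Figure D3:**
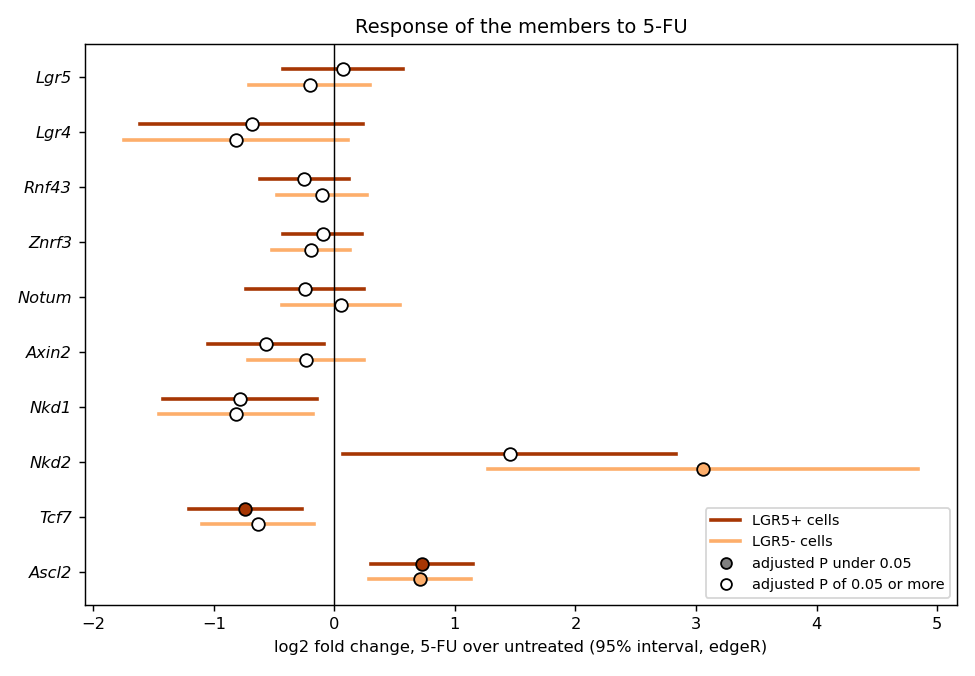
Log2 fold change of 5-FU-treated over untreated cells for each member (x axis), in LGR5+ (dark) and LGR5- cells (light), with 95% intervals from edgeR and filled points for adjusted *P* under 0.05. *Ascl2* at 0.72 and 0.71 and *Nkd1* at -0.78 and -0.82 have nearly the same value in both populations, and *Nkd2* has the widest interval.

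Promoter sequences from RefSeq were looked up to see what the called gene *Ascl2* and the common readout *Axin2* have before their starts. The table held 9 promoters for 7 of the members, and none for *Lgr5*, *Znrf3* and *Notum*. The letters CTTTGAT and CTTTGAA, which TCF/LEF factors favor, were searched on both strands of the 300 bases from 250 before to 50 after each start. They were in 0 of the 9 windows and in 8.65% of 32851 promoters in the table, so these letters are not in these windows, from which nothing follows about binding elsewhere. For the *Nkd1* window and a *Tcf7* window, the 50 bases after the start were not found in a GENCODE M21 transcript of the gene. The 250 bases before the start are shown in full on GRCm38.p6, 5′ to 3′ on the strand of the gene and without capitals, as no match was found.
Ascl2, chr7:142969265-142969514, minus strand: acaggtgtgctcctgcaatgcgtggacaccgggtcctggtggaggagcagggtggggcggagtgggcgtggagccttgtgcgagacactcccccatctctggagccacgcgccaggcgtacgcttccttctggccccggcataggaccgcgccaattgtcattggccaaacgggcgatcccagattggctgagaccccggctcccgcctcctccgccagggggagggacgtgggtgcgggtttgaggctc
Axin2, chr11:108920099-108920348, plus strand: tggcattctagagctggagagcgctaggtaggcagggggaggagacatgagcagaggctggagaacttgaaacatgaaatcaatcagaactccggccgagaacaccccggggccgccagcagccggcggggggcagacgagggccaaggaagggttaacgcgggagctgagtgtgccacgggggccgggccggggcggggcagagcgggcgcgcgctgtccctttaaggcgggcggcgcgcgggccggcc
Both were rich in G and C, at 67.6% for *Ascl2* and 69.2% for *Axin2* against a median of 52.4% over all promoters, and held 19 and 24 CG pairs against a median of 6.

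Between LGR5+ and LGR5- cells, 0 of the 10 members were called in either treatment by edgeR and 0 by DESeq2. DESeq2 called 0.0% of all genes in untreated cells and 0.508% after 5-FU. In each treatment edgeR called 0.0% of genes, and unadjusted *P* values under 0.05 were found for 1 member and 1.32% of genes in untreated cells, and for 1 member and 13.0% of genes after 5-FU. The member in untreated cells was *Nkd2*, at the counts given above. After 5-FU it was *Axin2*, lower in LGR5+ cells by a log2 fold change of -0.56 (standard error 0.23, unadjusted *P* = 0.0256, adjusted *P* = 0.363, edgeR), with no overlap between the groups. Non-overlap between the populations was found in 1 of 10 members and 5.28% of genes without 5-FU, and in 1 of 10 members and 24.4% of genes with it. That member was *Nkd2* without 5-FU and *Axin2* with it. Apart from *Nkd2*, the log2 fold changes of the members lay between -0.23 and 0.11 in untreated cells and between -0.56 and 0.15 after 5-FU.

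The responses of both populations did not differ past the threshold for any member. The difference (LGR5+ minus LGR5- response) lay between -0.33 and 0.27 on the log2 scale for the 9 members other than *Nkd2*. The test called 0 of 10 members and 0.0% of genes by edgeR, and 0 members and 0.0% of genes by DESeq2. At an unadjusted *P* under 0.05 edgeR gave 0 members and 1.57% of genes. The largest of the 9 in size was *Axin2* at -0.33 (95% interval -1.01 to 0.35, edgeR), an interval that holds both no difference and one as large as the response itself.

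Other genes of the Wnt pathway were called in both directions with 5-FU. Of 17 receptor genes, 1 was called higher and 3 lower in each population, or 4 of 17 where 16.0% of all genes were called in LGR5+ and 15.4% in LGR5- cells. *Ror1*, a receptor for noncanonical Wnt ligands, fell by 0.89 in LGR5+ and by 0.84 in LGR5- cells on the log2 scale (adjusted *P* = 0.00242 and 0.00440, edgeR). The Frizzled gene *Fzd9* fell by 1.81 and by 1.24 (adjusted *P* = 0.00501 and 0.0370, edgeR), and *Fzd7* fell by 0.71 and by 0.69 (adjusted *P* = 0.0168 and 0.0216, edgeR). *Fzd1*, the gene called higher, is outside the rule for named genes and was named after its values were seen. Of the 4 R-spondin genes only 1 had enough reads to be tested, and edgeR called 0. At an unadjusted *P* under 0.05 there was 1 in LGR5+ and 0 in LGR5- cells, where 30.1% and 28.7% of all genes were.

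Among secreted inhibitors 9 of 17 genes were tested, with 1 called higher and 1 lower in each population, or 2 of 9 against the same 16.0% and 15.4% of all genes. *Dkk2* rose in both, from 38.4 to 58.8 CPM in LGR5+ and from 37.7 to 78.1 CPM in LGR5- cells (adjusted *P* = 0.0467 and 0.00280, edgeR). *Dkk4*, a Wnt-induced inhibitor of LRP receptors, fell from 7.20 to 1.82 CPM in LGR5+ cells (adjusted *P* = 0.00870, edgeR) and had means of 5.60 and 4.53 CPM in LGR5- cells (adjusted *P* = 0.686, edgeR). *Dkk3* fell from 6.43 to 2.26 CPM in LGR5- cells (adjusted *P* = 0.0175, edgeR), and in LGR5+ cells its means were 7.15 and 3.32 CPM (adjusted *P* = 0.0607, edgeR). For *Dkk4* and *Dkk3* the difference between populations was not called.

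Against these shares, 1 of 16 intracellular transducers was called higher in LGR5+ cells, and 1 higher and 1 lower in LGR5- cells. *Csnk1e*, a casein kinase that acts on Dishevelled, rose 1.80-fold in LGR5+ and 1.67-fold in LGR5- cells (adjusted *P* = 0.00420 and 0.0109, edgeR). *Dvl2*, a Dishevelled gene, fell 1.84-fold in LGR5- cells (adjusted *P* = 0.0154, edgeR) and had a log2 fold change of -0.67 in LGR5+ cells (adjusted *P* = 0.0533, edgeR). None of the 11 nuclear factors, *Lef1* and *Tcf7l2* among them, was called by edgeR in either population, with 2 in LGR5+ and 3 in LGR5- cells at an unadjusted *P* under 0.05, as were 30.1% and 28.7% of all genes.

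Genes known elsewhere as Wnt targets did not move one way. Of 17 such genes beside the members, 14 were tested, with 3 called higher and 2 lower in LGR5+ and 2 higher and 1 lower in LGR5- cells, against 16.0% and 15.4% of all genes. *Cd44*, an adhesion receptor, rose from 112.3 to 354 CPM in LGR5+ and from 113.3 to 373 CPM in LGR5- cells (adjusted *P* = 0.000381 and 0.000391, edgeR), and *Ccnd1* (cyclin D1) rose 2.81-fold and 2.30-fold (adjusted *P* = 0.00134 and 0.00610, edgeR). *Lrig1*, an inhibitor of growth factor receptors, fell 2.58-fold and 2.64-fold (adjusted *P* = 0.000257 and 0.000306, edgeR). Over these 14 genes the median log2 fold change was -0.0055 in LGR5+ and 0.0091 in LGR5- cells, against -0.016 and -0.050 over all genes. Of 10 pericentral liver targets 6 were tested. In LGR5+ cells 0 were called higher and 1 lower, where 3 had positive and 3 negative values, against 16.0% of all genes. In LGR5- cells 0 of 6 were called, against 15.4%. At an unadjusted *P* under 0.05 (edgeR) there were 3 in LGR5+ and 1 in LGR5- cells, against 30.1% and 28.7% of all genes. *Glul* (glutamine synthetase) fell from 119.0 to 74.0 CPM in LGR5+ cells (adjusted *P* = 0.0105, edgeR) and had means of 103 and 74.3 CPM in LGR5- cells (adjusted *P* = 0.0639, edgeR).

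Whether the members followed *Lgr5* from library to library was examined on log2 CPM within the 6 untreated and the 6 treated libraries, since treatment moves several genes. In untreated libraries 3 of the other 9 members had a positive correlation with *Lgr5*, where 51.1% of 16156 genes had one. In treated libraries 5 of 9 did, where 48.3% of genes had one. After Benjamini-Hochberg adjustment over all genes none of the 18 correlations passed the threshold, by Pearson's r or Spearman's rho. By exact permutation of r, 1 member in untreated libraries, against 7.77% of genes, and 0 in treated libraries, against 4.14%, had an unadjusted *P* under 0.05. The permutation treats the 6 libraries of a treatment as independent. Same-numbered treated libraries of both populations deviated together, so this may not hold.

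In untreated libraries the ligases were closest to *Lgr5*. *Znrf3* had r = 0.810 (exact *P* = 0.0333, adjusted *P* = 0.581) and rho = 0.714 (exact *P* = 0.136, adjusted *P* = 0.949), and *Rnf43* had r = 0.874 (exact *P* = 0.0556, adjusted *P* = 0.609) and rho = 0.657 (exact *P* = 0.175, adjusted *P* = 0.967). Without the 2 libraries farthest from the median of *Lgr5*, which were replicates 2 and 3 of the untreated LGR5- cells, r was 0.366 for *Znrf3* and 0.156 for *Rnf43*, over a range of *Lgr5* that their removal makes narrower. With any single library left out, r was at least 0.545 for *Znrf3* and 0.502 for *Rnf43*. *Nkd1*, the member with the lowest r at -0.711 (exact *P* = 0.281, adjusted *P* = 0.646; rho = -0.314, exact *P* = 0.564, adjusted *P* = 1), turned to 0.834 without them. Leaving out replicate 3 of the untreated LGR5- cells alone raised the number of members with a positive r from 3 to 8 of 9.

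In treated libraries *Nkd2* had r = 0.811 (exact *P* = 0.0583, adjusted *P* = 0.890; rho = 0.771, exact *P* = 0.103, adjusted *P* = 1) and *Nkd1* r = -0.799 (exact *P* = 0.0556, adjusted *P* = 0.890; rho = -0.657, exact *P* = 0.175, adjusted *P* = 1). Without replicates 2 and 3 of the 5-FU LGR5- cells r was 0.936 for *Nkd2*, whose reads are few, and -0.248 for *Nkd1*. Without replicate 3 alone, the number of members with a positive r went from 5 to 3 of 9. The libraries with the most *Lgr5* were those with the highest mitochondrial share, whose part in these correlations was not tested.

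**Figure D4:**
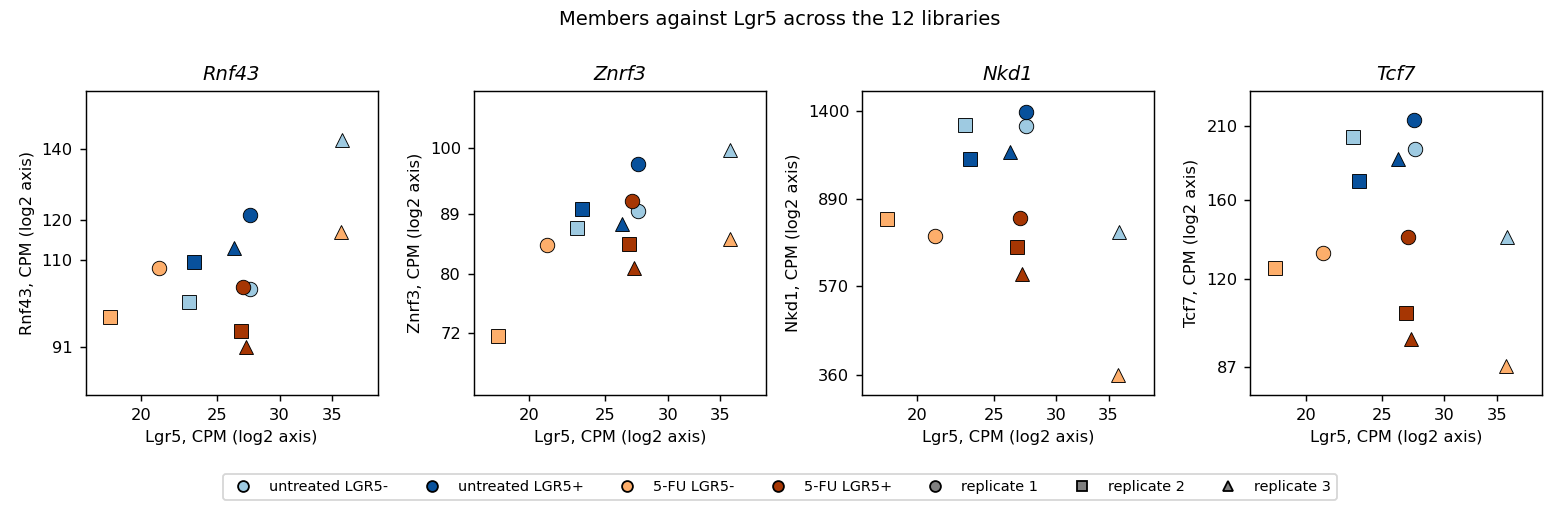
*Rnf43*, *Znrf3*, *Nkd1* and *Tcf7* against *Lgr5* in the 12 libraries, in CPM on log2 axes, with colour for the group and the marker for the replicate. The 2 points at 36.0 CPM of *Lgr5* are replicate 3 of the LGR5- cells, which lie high for *Rnf43* and low for *Nkd1* and *Tcf7* among libraries of their treatment.

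Deviations from the group means, taken over all 12 libraries as a description, showed pairs of members that moved together more closely than any did with *Lgr5* once replicate 3 of the LGR5- cells was set aside. The r of these deviations was 0.930 for *Nkd1* and *Tcf7*, 0.874 for *Notum* and *Tcf7*, 0.850 for *Rnf43* and *Znrf3* and 0.782 for *Notum* and *Nkd1*, and in the 10 libraries without replicate 3 of the LGR5- cells 0.891, 0.850, 0.938 and 0.833. Other pairs turned with the same libraries: r went from -0.406 to 0.871 for *Rnf43* and *Tcf7*, from -0.601 to 0.689 for *Rnf43* and *Nkd1*, from -0.126 to 0.797 for *Rnf43* and *Notum* and from -0.131 to 0.706 for *Znrf3* and *Tcf7*. *Lgr4* and *Axin2* ran opposite, with r = -0.790 over 12 and -0.713 over 10 libraries. With *Lgr5* the highest r among members was 0.755 for *Rnf43* over 12 libraries and 0.614 over 10, and *Nkd1* went from -0.860 to 0.185. Libraries share depth and scaling, and these values carry no test.

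Of 10803 genes with a mean of at least 5 CPM, those closest to *Lgr5* in these deviations were *Ptprk* (a receptor phosphatase) at r = 0.986, *Ube4a* at 0.974, *Gm28661* at 0.963, *Rpl22l1* at 0.959 and *Arhgap39* at 0.958. Among the farthest were *Pofut2* at -0.988, *Necap2* at -0.981, *Fam98b* at -0.979 and *Asrgl1* at -0.979. In the 10 libraries without replicate 3 of the LGR5- cells these became 0.669 to 0.935 and -0.944 to -0.793. *Lgr4* and *Nkd2* were under this level and not ranked, and of the 7 other members ranked none was among these genes, *Rnf43* being the nearest at the positive end and *Nkd1* at the negative end.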

How the data were processed

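The authors amplified RNA of sorted cells with a SMART-Seq kit and deposited 1 table of whole-number read counts per gene, without normalization, for 12 libraries. The submitters' processing notes name HISAT, HISAT2, TopHat2 and HTSeq and the build mm8, with no versions. Annotation here came from GENCODE M21 (GRCm38), and strand of counting is not given in the sources used here. Members and lists were chosen with earlier results of these data known.

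Groups and replicate numbers came from the sample titles. In R 4.3.3, genes were filtered with filterByExpr, scaled by TMM and fitted by edgeR 4.0.16 (glmQLFit, robust, 4 group means, common dispersion 0.0708), which kept 16157 genes. DESeq2 1.42.0 was an alternative. The fit and the correlations were tested on simulated data. Named genes were all members, up to 3 genes per list with the smallest adjusted *P* under 0.05, and the 5 genes most and least like *Lgr5*, of which 1 is not reported here. Alternatives were tests of all genes without a filter, a minimum of 10 reads per library, RLE scaling, library size only, a prior count of 0.5, only the libraries compared, a replicate block, and each library left out, with both LGR5- replicate 3 libraries left out added after seeing the data. Same-numbered libraries deviated together, with r over 0.1 in all 3 pairs, only between 5-FU LGR5- and LGR5+ cells (r of 0.571, 0.217 and 0.304), where blocking changed no member call. Between untreated and 5-FU LGR5- cells r was 0.0546, 0.282 and 0.425. Read intervals cover counting error only.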

Additional observations from a re-analysis of the deposited data

How the results depend on the processing

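For 5-FU in LGR5+ cells, 2 members were called, against 1 with library size only, 5 with only the libraries compared, 4 without both LGR5- replicate 3 libraries, and 0 to 2 with single libraries left out. For 5-FU in LGR5- cells, 2 were called, against 1 at a minimum of 10 reads in every library, which left *Nkd2* untested, 4 with DESeq2, 0 with only the libraries compared, which also left *Nkd2* untested, 4 with the replicate block, and 0 to 3 with single libraries left out. Over all genes the share called in LGR5+ cells was 16.0%, then 14.9%, 26.7% and 27.5% in the order given, and 8.22% to 14.9% with single libraries left out. In LGR5- cells it was 15.4%, then 17.2%, 19.5%, 8.35% and 17.9%, and 9.36% to 20.8% with single libraries left out. The counts of members thus changed between fits in which the share of all genes changed too. The check above does not settle whether the replicate numbers pair treated with untreated libraries. The block gave 3 calls in LGR5+ cells, where it called 18.4% of all genes. Without any filter the 2 calls in LGR5+ cells were *Nkd1* and *Tcf7*, both lower, and without both replicate 3 libraries the 2 in LGR5- cells were the same genes. The counts of members called between populations, and for the difference between responses, stayed at 0 under every alternative run, in which at most 0.508% of all genes were called. Members with a positive r to *Lgr5* numbered 3 to 8 in untreated and 3 to 5 in 5-FU libraries with single libraries left out, and 7 and 4 without the 2 farthest libraries. Apart from the gene left untested, the cause of these changes was not tested.

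Directions that turned belonged to small values that no fit called. These were *Lgr5* with 5-FU in LGR5+ cells at -0.015 with library size only, *Rnf43* at 0.012 and *Axin2* at 0.040 with 5-FU in LGR5- cells without both replicate 3 libraries, and *Lgr5* between untreated populations at 0.026 without them. With single libraries left out, *Rnf43* ranged from -0.20 to 0.073 and *Notum* from -0.054 to 0.24 in LGR5- cells with 5-FU, and *Lgr5* between populations from -0.30 to 0.026 untreated and from -0.066 to 0.42 after 5-FU. Over all members, comparisons and alternatives, 67 of 773 values turned, none of them called. Library size only moved the median gene by -0.10 between populations after 5-FU. *Nkd2*, at 1 to 20 reads per library, is near the limit of the depth.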
